A study of Mus musculus with 2 samples.

Results

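Prap1 and Calb1 are 2 of the 31053 genes counted in single cells of the mouse cervix, and they were followed here by symbol into every cell barcode that carried them. Barcodes with at least 20 unique molecular identifiers (UMIs, each standing for 1 captured RNA molecule) of Prap1 were called Prap1-high. There were 32 of these among the 10853 barcodes of a progesterone library and 0 among the 5368 barcodes of a control library. After a filter on cell quality, 29 Prap1-high cells remained of 8541 progesterone cells, a share of 0.340% with an exact Clopper-Pearson interval of 0.228 to 0.487%. None of the 4579 control cells qualified, which allows a share of up to 0.0655% by 3 counts. Calb1 UMIs were found in 21 progesterone barcodes and in 0 control barcodes.

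Both groups were female C57BL6/129 mice whose ovaries had been removed at 7 to 8 weeks of age, followed by 2 weeks of recovery and a 15-day experiment. The control mice were left untreated. The progesterone mice were given estradiol (E2) under the skin, 100 µg per day in 100 µL of corn oil on 2 successive days, and then carried a 25 mg pellet designed to last 21 days and to release an estimated 1 mg of hormone per day. Estradiol, injections, pellet and progesterone therefore cannot be told apart between the libraries. The cervix below the transition zone, freed of vagina, was dissociated with a protease at 4 °C for 60 min and strained at 40 µm, and cells of 9 mice were pooled into 1 library per group. The series asks which luminal cells of the cervix give rise to its secretory cells. With 1 library per group there is no replicate and no test. Every bracketed range is an exact 95% interval for counting error only, and levels are in CPM, UMIs per 1000000 UMIs of the cells named.

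Prap1 encodes the proline-rich acidic protein 1, a small secreted protein known from the epithelium of the pregnant uterus and of the gut. Calb1 encodes calbindin-D28k, a cytosolic protein that binds calcium through EF hands and is known from kidney tubules, neurons and the uterine lining. Columnar (luminal) epithelium is marked by the keratins Krt8, Krt18 and Krt19, and the basal layer of squamous epithelium by Krt5 and Krt14. The canal of the cervix is lined in part by mucous cells that make Muc5b.

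Prap1 (ENSMUSG00000025467) lies on GRCm38 chromosome 7, 140093395 to 140097200, on the plus strand, and is protein coding. Calb1 (ENSMUSG00000028222) lies on chromosome 4, 15881264 to 15908064, on the plus strand, and is protein coding too. The Prap1 promoter is shown because this gene supplied up to 37.6% of the RNA molecules of a single cell, and because the mice were treated with ligands of the estrogen and progesterone receptors. The sequence is from RefSeq (GRCm38.p6), chr7:140093146-140093445 on the plus strand, 250 bases before and 50 after the annotated start of the gene. Capitals mark the only stretch with a pair of estrogen receptor half-sites.
Prap1 promoter: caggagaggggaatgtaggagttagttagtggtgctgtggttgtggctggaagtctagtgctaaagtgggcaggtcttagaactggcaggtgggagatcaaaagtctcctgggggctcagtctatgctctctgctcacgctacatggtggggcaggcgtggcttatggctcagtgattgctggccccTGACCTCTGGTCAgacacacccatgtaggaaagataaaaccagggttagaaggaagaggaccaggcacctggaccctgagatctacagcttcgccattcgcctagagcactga
The capitals start at base 188, counted from 1 at the 5′ end, and match TGACCNNNGGTCA, which was searched after the sequence had been read. That pattern was in 16 of 32851 promoter windows of the same 300 bases (0.0487%). The half-site GGTCA, searched on both strands, matched Prap1 at both ends of the capitals and was found in 40.5% of all windows. The full estrogen response element GGTCANNNTGACC, in which the half-sites face each other, was not in the window and was in 0.0700% of all windows. Neither the progesterone receptor half-site AGAACA (18.97% of windows) nor the TATA box TATAAA (13.6%) was in it. A match is a run of letters and not evidence of binding.

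The 2 libraries held 21658684 control and 44811069 progesterone UMIs, with medians of 3061.5 and 3757 UMIs per barcode. The filter and the removal of 181 and 680 called doublets left the 4579 and 8541 cells analysed. The libraries shared 19 barcode sequences, of which 0 were Prap1-high and 0 carried Calb1. Clusters were built without Prap1, Calb1 and the mitochondrial genes, which were removed after cells had been scaled to totals that included them. Luminal-like cells were those of clusters that met a set of 10 luminal markers: cluster 11, led by Agr2, Tff1 and Muc5b, cluster 18, led by Clca1, Tff1 and Olfm4, cluster 13, led by Psca and Tff1, and cluster 14. Apart from the Prap1-high cells they numbered 1974 in the progesterone and 234 in the control library, and of the control cells 229 were in cluster 13.

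Prap1 counts were split into a small number of cells with very many molecules and a wide scatter of single ones. In the progesterone library 20636 Prap1 UMIs fell on 334 barcodes, of which 268 had exactly 1 UMI, 16 had 2, 9 had 3 to 9, 9 had 10 to 19 and 32 had 20 or more. Of the last, 22 had at least 100 and 7 at least 1000, up to 3945. The analysed progesterone cells just inside the limit had 23, 29 and 33 Prap1 UMIs, and those just outside had 18, 17 and 13. In the control library 82 Prap1 UMIs fell on 37 barcodes, 28 of them with 1 UMI, and the highest had 19. The limit of 20 thus lies close to values in both libraries, while the bulk of the Prap1 RNA lies far above it.

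**Figure D1:**
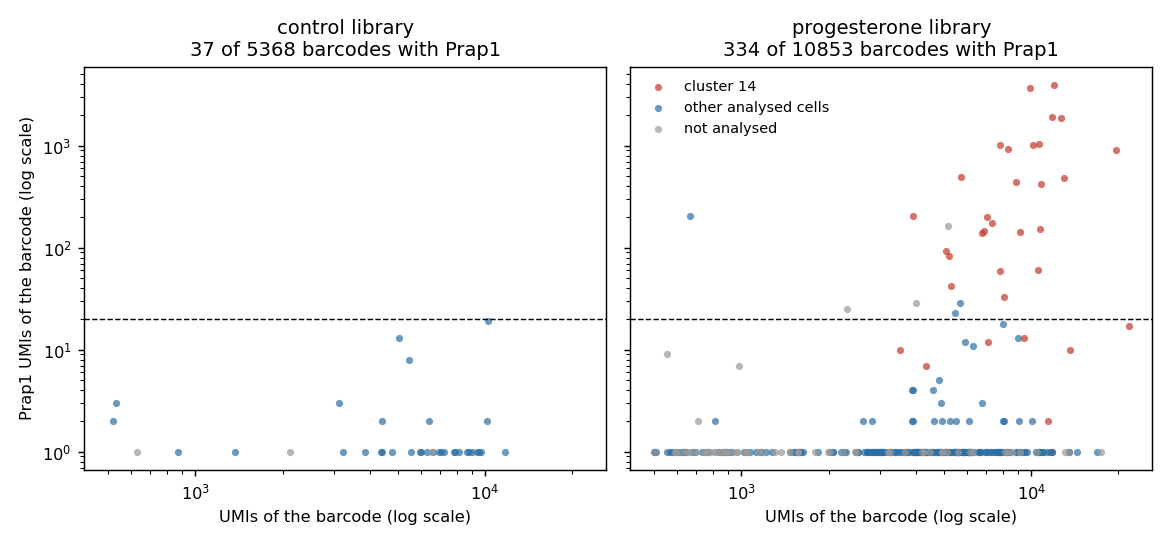
Prap1 UMIs of each barcode that has any (y axis, log scale) against all UMIs of that barcode (x axis, log scale), control library on the left and progesterone library on the right, with a dashed line at 20 Prap1 UMIs. Red points are cells of cluster 14, blue points other analysed cells and grey points barcodes that were not analysed. The points above 100 are all in the progesterone library and mostly in cluster 14, and 268 progesterone barcodes lie on the line of 1 UMI.

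The 29 analysed Prap1-high cells held 98.1% of the analysed Prap1 UMIs of their library, at 80857 CPM [79739 to 81986]. Per cell the count ran from 23 through a median of 204 to 3945 UMIs, or from 0.410% through 3.72% to 37.6% of all UMIs of the cell. The highest cells carried most of it: the 2 cells at the top held 38.4% and the top 6 held 67.6% of the Prap1 UMIs of the group. Since these cells were chosen on Prap1, these values describe the choice.

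Prap1 elsewhere was low but not even. All other progesterone cells together had 10.1 CPM [9.16 to 11.2], and all control cells 3.93 [3.11 to 4.89]. Among progesterone classes, luminal-like cells outside the Prap1-high group had 21.6 CPM [18.8 to 24.7], neutrophil-like 25.1 [12.0 to 46.2], endothelium-like 14.6 [1.76 to 52.6], macrophage-like 12.7 [6.95 to 21.3], fibroblast-like 10.2 [2.77 to 26.1], erythrocyte-like 5.69 [1.55 to 14.6] and squamous-like 5.13 [4.25 to 6.15]. The intervals of the neutrophil-, endothelium-, macrophage- and fibroblast-like cells overlap, so their order is not resolved at this depth. Squamous-like, fibroblast-like and endothelium-like cells are not known sources of Prap1, and their shares of cells with a Prap1 UMI were close, at 2.55%, 3.48% and 3.28%, with median depths of 4864, 2670 and 2051 UMIs.

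The share of barcodes with Prap1 outside these cells changed little with depth. Progesterone barcodes outside cluster 14 with under 10 Prap1 UMIs carried Prap1 in 2.67% of cases, and in 2.76%, 2.14%, 2.50%, 2.68% and 3.58% of barcodes with 500 to 1000, 1000 to 2000, 2000 to 4000, 4000 to 8000 and at least 8000 UMIs. Their Prap1 level fell with depth, from 51.3 CPM [39.9 to 65.1] in the shallowest to 3.75 [2.71 to 5.07] in the deepest barcodes. The same share in the control library was 0.652%. Against this scatter, cluster 13 stood out within the luminal-like cells with 120 CPM [93.4 to 152.5] in 110 cells, and with a Prap1 UMI in 19.1% of them, whereas cluster 18 had 12.2 CPM [8.92 to 16.2] and cluster 11 had 4.21 [2.64 to 6.38].

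In the control library, 50.6% of the analysed Prap1 UMIs were in cluster 8 (40 UMIs, 15.2 CPM [10.8 to 20.7], 410 cells) and 30.4% in cluster 19 (24 UMIs, 39.5 CPM [25.3 to 58.7], 87 cells). Neither cluster met a class name, cluster 8 being led by Sprr2d, Ltf and Lcn2 and cluster 19 by Sprr2d and Psca. Luminal scored highest in cluster 19 (2.69, against 2.68 for neutrophil) and second in cluster 8 (2.03, against 2.26 for erythrocyte). Without doublet removal, a cluster led by Sprr2d, Psca and Lcn2 with 368 control cells was named luminal. In each, 1 cell held a large part, with 19 and 13 UMIs. Control luminal-like cells, which leave out clusters 8 and 19, had 1 Prap1 UMI (1.26 CPM [0.0319 to 7.03]). Control squamous-like cells had 12 (0.846 CPM [0.437 to 1.48]).

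**Figure D2:**
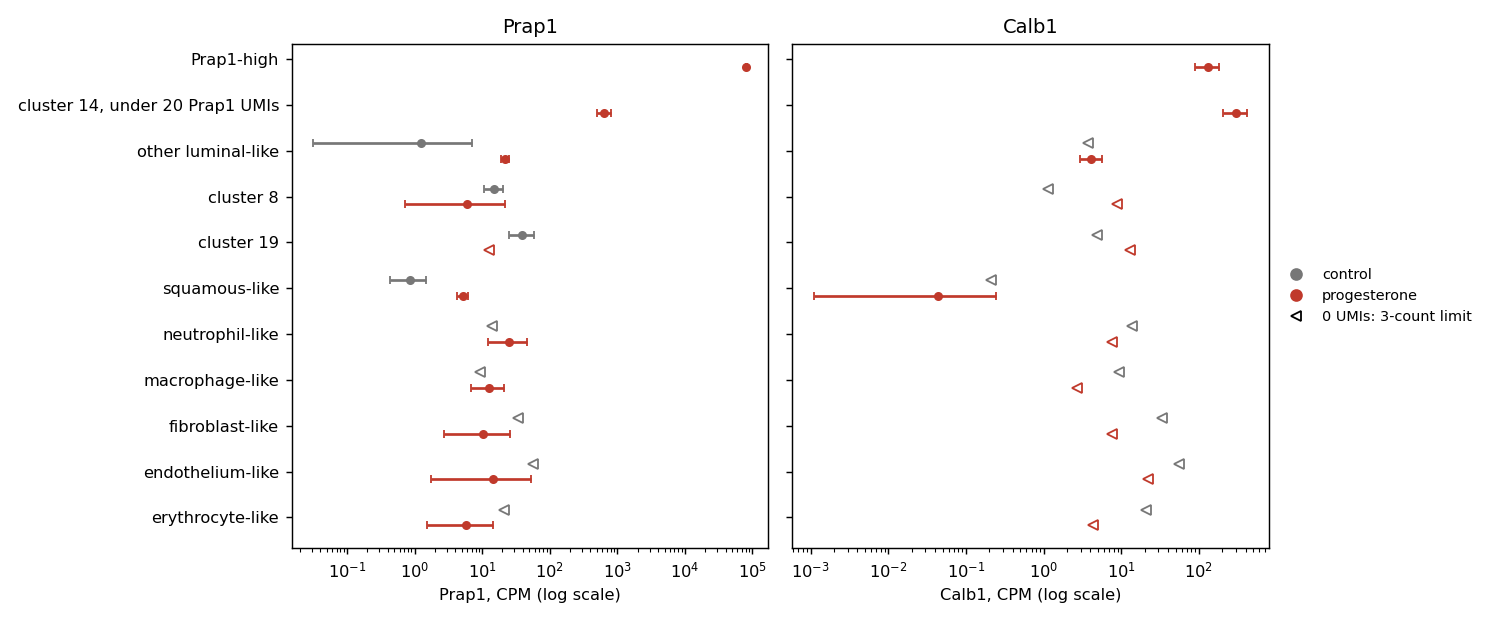
Level of Prap1 (left) and Calb1 (right) in CPM on log x axes for sets of cells, control in grey and progesterone in red. Points are summed counts with exact Poisson 95% bars, and open triangles mark 0 UMIs at the level of 3 counts. Prap1 reaches 80857 CPM in the Prap1-high cells and 636 in the other cells of cluster 14, and Calb1 has its highest points in the same pair of sets, with no control UMI anywhere.

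Most Prap1-high cells formed 1 cluster, although Prap1 was not among the genes clustered on. Prap1 still counted in the total by which each cell was scaled, up to 37.6% of the UMIs of a cell. Its part in the clustering through that total was not tested. Cluster 14 held 38 progesterone and 0 control cells, and 26 of the 29 Prap1-high cells were in it. Of the other 3, a pair was in cluster 13, with 29 and 23 Prap1 UMIs, and 1 was placed in suprabasal squamous-like cluster 0. That last barcode had only 663 UMIs in all, 204 of them Prap1, and no UMI of Krt8, Krt18, Krt19, Krt7, Krt5, Krt14 or Krt13. At a finer cluster resolution 26 Prap1-high cells again shared a cluster of 38 cells, under a stricter cell filter 20 of 22 shared a cluster of 28, and without doublet removal 28 were in a broader cluster of 143 progesterone and 141 control cells. Since all of its cells came from 1 library, cluster 14 cannot be told apart from a property of that library.

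The 12 cells of cluster 14 under the limit held 73 Prap1 UMIs in 9 cells, or 636 CPM [499 to 800]. This was below the Prap1-high cells by definition, and above every other set of cells measured. Without regard to the limit, 35 of the 38 cells of cluster 14 carried Prap1, and the cluster had 56533 CPM [55748 to 57327].

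Prap1-high cells were deeper than their neighbours, with a median of 8052 UMIs and 2426 genes against 4784.5 and 1868 in other luminal-like cells. Their mitochondrial share was alike, at 7.48% against 7.34%. Their median doublet score was 0.0798 against 0.0384, and 0 of them were called doublets. The part of depth and of doublets in the results was not tested, except where cells were thinned to equal depth. A further 3 Prap1-high barcodes failed the filter with over 20% mitochondrial UMIs. Among them, a barcode of 2320 UMIs had 4 of the leukocyte gene Ptprc and 0 of Krt8 and Krt18. At the 3′ end Prap1 overlaps Fuom (chromosome 7, 140096770 to 140102441), a gene of fucose metabolism on the minus strand, and whether counting used strand is not given in the sources used here. Fuom had 267 CPM in Prap1-high cells, 279 in the cells of cluster 14 under the limit and 38.5 in other luminal-like cells. Its part in the Prap1 counts was not tested.

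Calb1 was a rare transcript that was counted mostly in cluster 14, on both sides of the limit on Prap1. The 75 deposited Calb1 UMIs were all in the progesterone library, on 21 barcodes with at most 10 UMIs each, and 73 UMIs in 19 cells were analysed. Of the 21 barcodes, 15 were in cluster 14, 3 were other luminal-like cells, 1 was squamous-like and 2 were not analysed. By UMIs, cluster 14 held 90.4% [81.2 to 96.1] of the analysed Calb1, and the Prap1-high cells 43.8% [32.2 to 55.9]. The latter share depends on the limit and was larger at 10 Prap1 UMIs, which 38 cells met. The cells of cluster 14 with 17, 13, 12, 10 and 10 Prap1 UMIs had 7, 10, 1, 6 and 0 of Calb1.

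In Prap1-high cells Calb1 stood at 130 CPM [88.7 to 183], from 32 UMIs in 9 of 29 cells, with 0 UMIs in the median cell and 6 in the highest. In the 12 cells of cluster 14 under the limit it stood at 296 CPM [205 to 414], from 34 UMIs in 6 cells. Other luminal-like cells, which include those 12, had 4.13 CPM [2.95 to 5.63]. The ratio of Prap1-high over other luminal-like cells was 31.4 [19.1 to 51.2], or 4.98 on the log2 scale. Compared with luminal-like cells outside cluster 14 instead, the Prap1-high cells of that cluster had a Calb1 log2 ratio of 7.67 [6.48 to 9.31].

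Outside cluster 14, Calb1 was nearly absent. It had 1 UMI each in clusters 11 and 18 (0.192 and 0.265 CPM), 4 UMIs in a single shallow cell of 602 UMIs in cluster 13, and 1 UMI in 4349 squamous-like cells (0.0435 CPM [0.00110 to 0.242]). Neutrophil-, macrophage-, fibroblast-, endothelium- and erythrocyte-like cells had 0, where 3 counts would be 2.73 to 21.8 CPM. Set against Prap1, there were 1.60 Calb1 UMIs [1.10 to 2.26] per 1000 Prap1 UMIs in Prap1-high cells and 466 [301 to 709] in the rest of cluster 14, sets that the limit on Prap1 itself divides, so that this contrast describes the choice.

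At equal depth the same contrast held. Thinned to 2000 UMIs, 21.4% [8.30 to 41.0] of 28 Prap1-high cells had a Calb1 UMI, with 1 shallower cell left out, against 31.0% of 29 before thinning. Of other luminal-like cells 0.176% [0.0363 to 0.513] did (3 of 1706, with 268 left out), against 0.456% before. Squamous-like cells, in which Calb1 is not known, had 0.0247% (1 of 4044, with 305 left out) against 0.0230% before, at a median depth of 4864 UMIs. Control luminal-like cells had 0 of 154, which allows up to 1.95%, with 80 left out.

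The cells of cluster 14 with and without Calb1 differed in a few genes, most of them by about 2-fold in sums that rest on few cells. The 15 with Calb1 had 0 to 1892 Prap1 UMIs with a median of 59, and the 23 without had 0 to 3945 with a median of 142, so the groups overlap widely. In sums, Prap1 was at 33671 CPM with and 75727 CPM without Calb1, a ratio of 0.445 [0.431 to 0.459]. Of the UMIs without Calb1, 2 cells with 3945 and 3717 UMIs held 53.2%. Without these 2 cells the level was 40051 CPM and the ratio 0.841 [0.811 to 0.871]. When the highest cell was left out of each set instead, the ratio was 0.401 [0.386 to 0.417]. C3 had a ratio of 0.432 [0.373 to 0.500] with over without Calb1, which was 0.504 [0.432 to 0.587] without the same 2 cells. The aspartic protease gene Napsa had 0.401 [0.267 to 0.590], with 49.5% of its UMIs without Calb1 in 1 cell, and 0.489 [0.284 to 0.817] when its highest cell was left out of each set. In the other direction, Wfdc10 had a ratio of 1.96 [1.37 to 2.81] and Ifitm1 1.87 [1.64 to 2.14]. Sox17 had 1.87 [1.05 to 3.40], an interval that included 1 without the 2 cells (1.66 [0.930 to 3.01]). Among keratins, Krt5 was lower with Calb1, at 113 against 342 CPM (0.330 [0.184 to 0.563]), with 49.2% of the latter in 1 cell, and had 0.387 [0.177 to 0.786] without its highest cell in each set. Krt8 had 1.14 [0.931 to 1.38] and Krt18 1.10 [0.905 to 1.33], intervals that include 1. Calb1 is counted more often in deeper cells, and the cells with it had a median of 10122 UMIs against 7827. The part of depth in this split was not tested.

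The keratins of the Prap1-high cells were those of columnar epithelium. Krt8, Krt18 and Krt19 were each counted in 28 of 29 cells, with medians of 12, 11 and 11 UMIs, and Krt7 in 27 with a median of 5. The exception for all of them was the barcode of 663 UMIs, and the other cell without Krt7 had the remaining luminal keratins. Krt5 was counted in 11 cells and Krt14 in 14, and the median cell had 0 of either.

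Set against other luminal-like cells, the balance among keratins was different. Krt7 was at 749 against 318 CPM, a ratio of 2.35 [2.02 to 2.73], Krt19 at 1256 against 723 (1.74 [1.54 to 1.95]) and Krt8 at 1284 against 832 (1.54 [1.38 to 1.73]). Krt18, the usual partner of Krt8, was at 1284 against 2442 CPM (0.526 [0.469 to 0.588]). Summed over these 4 genes the log2 ratio was 0.08 [−0.0025 to 0.17], which includes 0, and it turned to −0.0097 without mitochondrial, ribosomal protein and the 20 most abundant genes and to −0.026 with a limit of 50 Prap1 UMIs.

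Squamous keratins were mostly lower and came from few cells. Krt13 was at 510 against 1469 CPM (0.348 [0.289 to 0.414]), from 5 of 29 cells. Krt5 was at 308 against 738 (0.417 [0.328 to 0.523]), Krt15 at 296 against 437 (0.677 [0.529 to 0.853]) and Krt14 at 316 against 272 (1.16 [0.917 to 1.46]), an interval that includes 1. The Krt14 log2 ratio turned from 0.23 to −0.55 without doublet removal. For Krt5 and Krt14, 3 cells with at least 15 UMIs of the pair stood apart, and the deepest cell of the group, with 19687 UMIs and 903 of Prap1, had 32 of Krt5 and 49 of Krt13 beside 15 of Krt8. Krt12, a keratin best known from the cornea, was higher in Prap1-high cells, at 284 against 3.93 CPM, a ratio of 72.2 [48.0 to 110] from 15 cells, though only 4.35% of the Krt12 UMIs of the library lay in them. Its ratio was 14.2 with a reference chosen by keratins and 44.2 without doublet removal.

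The luminal marker list was detected in full, 10 of 10 genes, at 6924 CPM, with single cells from 0 to 12677 and a median of 7014. In other luminal-like cells it stood at 6994 CPM. Defining markers of T and NK cells (5 genes), B and plasma cells (3) and smooth muscle (5) were all at 0 in the Prap1-high cells. The leukocyte gene Ptprc, which was not on these lists, had 1 UMI in each of 4 of the 29 Prap1-high cells. It was counted in 8 of 1974 other luminal-like cells. Of fibroblast markers 1 of 6 had a UMI, of endothelial markers 1 of 5, of neutrophil markers 3 of 6 with 8 UMIs, and of macrophage markers 2 of 7 with 12 UMIs, C1qb, C1qc, Csf1r, Adgre1 and Lyz2 being at 0. Of erythrocyte markers 4 of 5 had 21 UMIs. Of ciliated cell markers 2 of 5 had 7 UMIs, with Foxj1, Dynlrb2 and Cfap126 at 0. Ciliated markers summed to 28.4 CPM, against 7.34 in other luminal-like cells. Basal squamous markers summed to 1175 CPM, with cells from 0 to 5663, against 1654 in other luminal-like cells, and suprabasal markers to 652 CPM, from 0 to 9737, against 2079. Apart from the shallow barcode without keratins, the label of epithelial cells therefore met its markers.

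**Figure D3:**
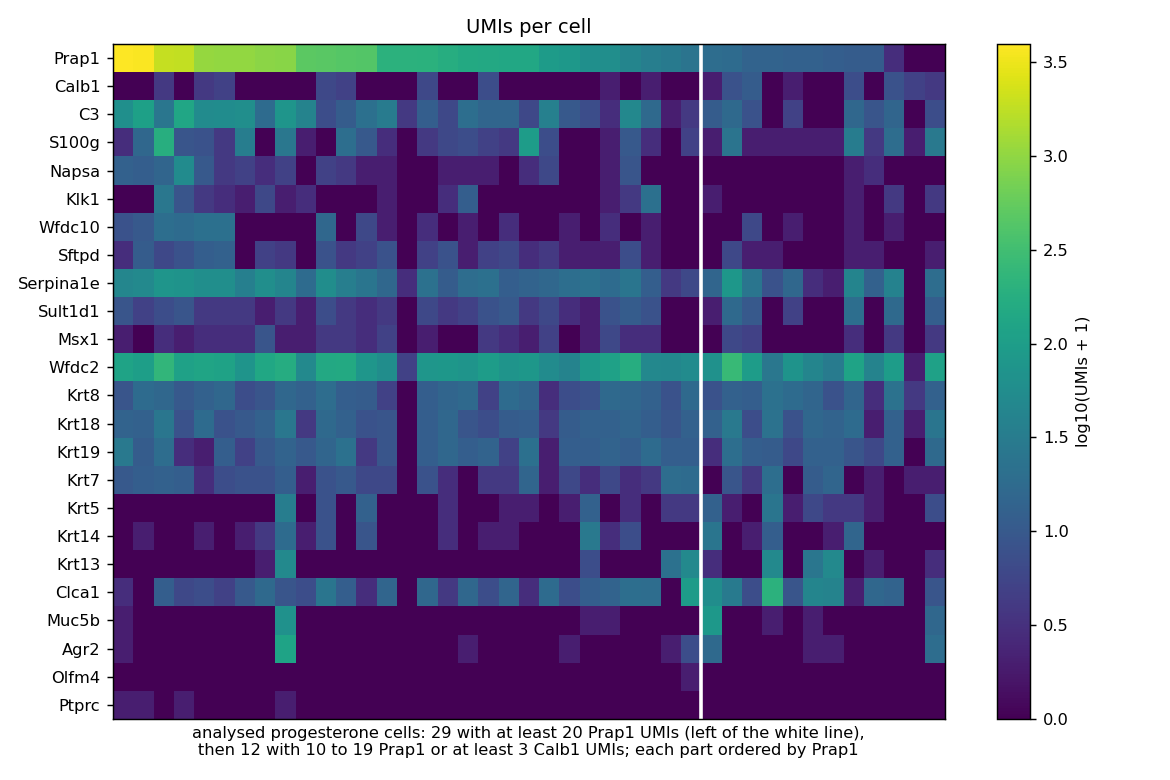
UMIs per cell as log10(UMIs + 1), in colour, for 24 genes (rows) in 41 analysed progesterone cells (columns): 29 Prap1-high cells left of the white line and, right of it, 12 cells with 10 to 19 Prap1 or at least 3 Calb1 UMIs, each part ordered by Prap1. Krt8, Krt18, Krt19 and Wfdc2 run through nearly all columns, Muc5b is dark except in a few, and Calb1 is spread on both sides of the line.

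Some genes had a large share of their UMIs in the Prap1-high cells, though for most of those listed the larger part lay in other cells. The measure of likeness was the share of the UMIs of a gene over all 8541 progesterone cells that lay in the 29 Prap1-high cells, for genes with at least 100 UMIs. Prap1 itself had 98.1%. Next came Wfdc10, of the WAP four-disulfide family, with 85.9%, Sftpd (surfactant protein D, a secreted lectin of innate defence) with 75.0% and Klk1 (tissue kallikrein, a secreted protease) with 74.1%. The list went on with Nmb (46.6%), Cdkl1 (44.4%), Sult1d1 (43.8%), Napsa (42.3%), Lrrc31 (42.2%), Car2 (36.3%) and C3 (33.9%). Calb1 had 43.8%, on fewer UMIs than the rule asks for.

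These RNAs were spread over the cells to different degrees. C3, the central component of complement, was counted in all 29 Prap1-high cells with 1 to 133 UMIs and a median of 17, and Serpina1e, a protease inhibitor of the alpha-1 antitrypsin family, in all 29 with 2 to 75 and a median of 21. Sftpd was in 24, Cdkl1 in 23 and Napsa in 20 cells, while Klk1 was in 14, Wfdc10 in 15 and Nmb in 7. Some sums rest on single cells: 1 cell held 40.6% of the S100g, 37.9% of the Napsa and 35.4% of the Nmb UMIs. Serpina1e has near-identical copies, so how its reads were divided among them is uncertain.

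In the comparison with other luminal-like cells, 9.38% of 11054 genes with at least 20 UMIs were higher by 2-fold or more in Prap1-high cells and 16.7% were lower by as much, around a median log2 ratio of −0.13. Of genes with at least 100 UMIs in the Prap1-high cells, Napsa was highest, at 549-fold [290 to 1170], followed by Wfdc10, at 252-fold [154 to 432]. C3 was among them, at 3565 against 36.9 CPM (96.6-fold [85.4 to 110]). Secreted or membrane-bound products included Sftpd at 121-fold [82.3 to 181], Klk1 at 307-fold [163 to 637] on 86 UMIs, the interferon-induced Ifitm1 at 61.9-fold [55.1 to 69.5] and Serpina1e at 19.2-fold [17.6 to 20.8]. Enzymes and transport genes included Fam213a at 45.4-fold, Sult1d1 (a sulfotransferase) at 31.6-fold [24.6 to 40.6], Car2 (a carbonic anhydrase) at 29.4-fold [25.2 to 34.2], Fxyd4 (a regulator of the sodium pump) at 10.8-fold and the lysosomal protease gene Ctsb at 9.92-fold [8.69 to 11.3]. Also among the 15 highest were S100g, given with the calcium genes, 4833423E24Rik (16.1-fold) and Rnf128 (10.8-fold). Ifitm1 was at 11.3-fold without doublet removal, 9.71-fold at the finer cluster resolution and 34.6-fold with a reference chosen by keratins. With a limit of 50 Prap1 UMIs Klk1 was at 80.3-fold and Napsa at 312-fold.

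Some of these genes were higher in the cells of cluster 14 under the limit than in the Prap1-high cells, and others lower. Sult1d1 was at 1229 CPM there and at 474 in Prap1-high cells, Msx1 at 375 and 215, Sox17 at 270.1 and 101, and Cdkl1 at 453 and 336. C3, in contrast, was at 706 and 3565 CPM, S100g at 993 and 1795, and Napsa at 26.1 and 567. On both sides of the limit C3 and S100g were above the 36.9 and 33.0 CPM of other luminal-like cells. Cells with 180 and 96 UMIs held 62.3% of the S100g of the Prap1-high cells. The 12 cells of cluster 14 under the limit are among the other luminal-like cells. With them left out of that reference and the same 29 Prap1-high cells, the log2 ratio of Sult1d1 went from 4.98 to 9.98, of Wfdc10 from 7.94 to 11.63, of Klk1 from 8.20 to 9.54 and of Cdkl1 from 5.11 to 6.25.

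Among the 29 Prap1-high cells, per UMI that was not Prap1, Serpina1e followed Prap1 most closely of the 11 genes looked at, with a Spearman rho of 0.83 across cells, followed by C3 with 0.65 and Napsa with 0.57. Wfdc2 had 0.43, S100g 0.22, Calb1 0.025 and Krt8 −0.23. These are descriptions over 29 cells of 1 library, which share depth and source and are not replicates.

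The genes lowest in Prap1-high cells included several of mucus secretion. The lowest was Olfm4, an olfactomedin that marks epithelial precursors in several tissues, with 1 UMI against 1579 CPM in other luminal-like cells (390-fold lower [70.0 to 15398]). Tff1, a trefoil peptide made with mucus, was 107-fold lower [67.1 to 184], and Muc5b was at 271 against 7609 CPM, 28.0-fold lower [22.1 to 36.2]. Of 67 Muc5b UMIs, 64 were in the cell of 19687 UMIs, and the other 28 cells had 3, or 13.2 CPM. For comparison, squamous-like cells of that library had 59.2 CPM of Muc5b, with a UMI in 20.3% of cells, and of the Prap1-high cells 13.8% had one. Spdef, the transcription factor of goblet cells, had 1 UMI, Chad 1, Cldn22 1, Cxcl15 2, Timp2 2, Pdzrn4 2, and Gp2 and Adh1 had 0, at least 23.8-fold and 12.5-fold lower against a floor of 3 counts over the group. With a limit of 10 Prap1 UMIs the added cells held Gp2, which was then 8.37-fold lower. Galnt6 (22.0-fold), Cyp2f2 (14.9-fold), Wfdc18 (11.8-fold) and Pglyrp1 (11.1-fold) completed the 15 lowest.

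**Figure D4:**
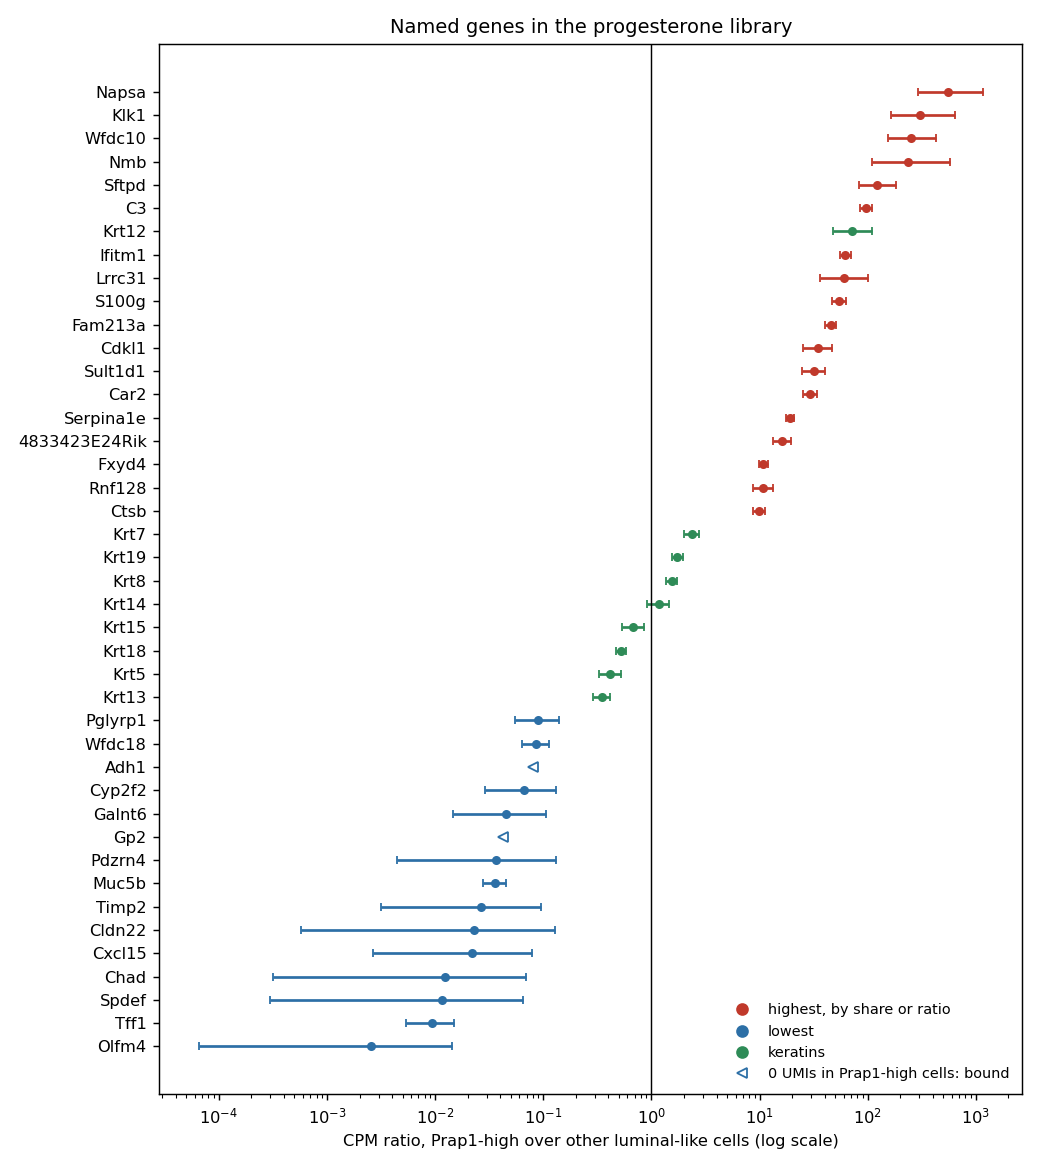
Ratio of CPM in Prap1-high over other luminal-like progesterone cells (x axis, log scale) for genes named by rule, with exact 95% bars. Genes named as highest are red, lowest blue and keratins green, an open triangle is a bound for a gene with 0 UMIs in Prap1-high cells, and the line marks a ratio of 1. Napsa is at the top with 549, the keratins lie near the line except Krt12, and Olfm4 is at the bottom.

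Of the mucous secretory list, 14 of 15 genes could be compared, 12 were lower by 2-fold or more and 0 higher, with a median log2 ratio of −3.28 beside −0.13 for all genes. Of all genes compared, 16.7% were lower and 9.38% higher by as much. Of the 1974 other luminal-like cells, 996 were in cluster 11 and 856 in cluster 18, which are led by several genes of this list. The lower values of the list therefore describe the reference as well as the Prap1-high cells. The interval of Tff2 includes 1. The pair that was neither was Wfdc2, a secreted protein of the WAP family, at 11149 against 6989 CPM (1.60 [1.54 to 1.66]) and counted in all 29 cells, and Fcgbp. Clca1, a secreted mucus-processing protein, was lower in the sums, at 1414 against 4814 CPM, but was counted in a larger share of cells. Its 349 UMIs were in 26 of 29 Prap1-high cells (89.7%), with a median of 9. Of the other luminal-like cells, which are shallower, 63.1% had it, with a median of 2 and up to 471 UMIs. Squamous-like cells had 32.0 CPM with a UMI in 13.2% of cells.

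Genes of calcium handling were compared because Calb1 is one of them. Of 12 others, 6 could be compared, and S100g, Trpv6 and Trpm6 were higher by 2-fold or more and 0 lower, with a median log2 ratio of 0.84. Over all genes compared, 9.38% were higher and 16.7% lower. S100g, which encodes calbindin-D9k, was at 1795 against 33.0 CPM (54.4-fold [47.0 to 63.1]), with 443 UMIs in 23 of 29 cells, from 0 through a median of 4 to 180 UMIs. The channel genes Trpv6 (4.70-fold [2.07 to 9.42]) and Trpm6 (2.35-fold [1.11 to 4.43]) rested on 9 and 10 UMIs. The calcium pump gene Atp2b1 was neither (1.25 [0.939 to 1.63]). The other calcium-binding proteins of this kind, Calb2 and Pvalb, had 0 UMIs in the library.

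Lists of uterine and hormone-response genes were mixed, and many of their genes were hardly counted. Beside them, 9.38% of all genes compared were higher and 16.7% lower. Of 12 uterine gland genes 5 could be compared: Sox17 (13.2-fold [8.06 to 21.1]) and Gas1 (on 2 UMIs, with an interval that includes 1) were higher, and Foxa2 (16.2 against 112 CPM) and Cxcl15 were lower. The median was −0.82, and 1.79 with genes at 0 UMIs set at their floor. Of 12 genes of the uterine progesterone response 3 could be compared, with Alox15, a lipoxygenase gene, 57.5-fold [28.5 to 119] higher, Gata2 lower with an interval that includes 1, and a median of 1.07 that turned to −0.94 under the stricter filter. All 5 Cyp26a1 UMIs of the library were in Prap1-high cells.

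Of 10 estrogen response genes 9 could be compared, beside all genes with 9.38% higher and 16.7% lower. C3, Lcn2 (9.22-fold [5.65 to 14.5]), Sprr2f (9.91-fold [6.98 to 13.8]) and Greb1 (5.81-fold on 4 UMIs) were higher, and Padi1 (0.205 [0.141 to 0.289]), Pgr and Muc1 lower. Of the UMIs of the library, 33.9% of C3 lay in Prap1-high cells, but 0.236% of Lcn2, 0.811% of Sprr2f and 0.423% of Greb1. The 24 Lcn2 UMIs came from 6 cells, 1 of which held 33.3%. The 45 Sprr2f UMIs came from 10 cells, 1 of which held 42.2%. Sprr2f belongs to a family of near-identical copies, so its count is uncertain. The median of 0.61 turned to −1.16 without doublet removal, to −0.91 at the finer resolution and to −0.38 with a reference chosen by keratins. Ltf, the lactoferrin gene, was at 2228 against 1462 CPM, in 25 of 29 cells.

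Steroid receptor genes gave 0 higher and 3 lower of 5 compared, with a median of −0.94, beside 9.38% higher and 16.7% lower of all genes. The estrogen receptor gene Esr1 was counted in 24 of 29 Prap1-high cells, at 251 against 202 CPM (1.24 [0.948 to 1.60]). The progesterone receptor gene Pgr was counted in 5 cells, at 32.4 against 101 CPM (0.321 [0.138 to 0.634]). Nr3c1, the glucocorticoid receptor gene, was also lower, with an interval that includes 1.

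Genes that mark position along the reproductive tract gave 2 higher and 0 lower of 5 compared, with a median of 0.55. All genes gave 9.38% higher and 16.7% lower. Msx1, a homeobox gene of the uterine epithelium, was 31.0-fold [21.2 to 45.1] higher and in 22 of 29 cells, and Wnt4 was 2.06-fold [1.14 to 3.46] higher. Pax8, Pax2 and Emx2, genes of the Müllerian duct, were neither. The 8 Hox genes of the list had 0 UMIs in Prap1-high cells, and in other luminal-like cells only Hoxa9 was counted, with 1 UMI. Lipoprotein genes, looked at because Prap1 is known to take part in lipid absorption in the gut, gave Dgat2 (5.52-fold [3.98 to 7.50]) as higher and 0 lower of 4 compared of 11, with Apob, Apoa4 and Apoc3 at 0 in the library.

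The progenitor list gave Axin2 higher, on 3 UMIs, and Olfm4 and Cd44 lower of 7 compared, with a median of 0.19 that turned to −0.20 with a limit of 10 Prap1 UMIs. Of the 7, only Olfm4 had an interval without 1. For this list and the next ones, the shares over all genes were 9.38% higher and 16.7% lower. Proliferation genes gave Mki67, Top2a and Mcm5 (on 3 UMIs, with an interval that includes 1) higher and 0 lower of 6 compared, with a median of 1.32, and 75.0% of the Top2a and 66.7% of the Mki67 UMIs came from 1 cell each. Of water and ion transport genes 8 were compared, with Slc12a2, a chloride cotransporter gene, lower at 154 against 1268 CPM (0.121 [0.0859 to 0.167]), Scnn1a and Aqp3 lower on 1 UMI each (the interval of Aqp3 includes 1), 0 higher, and a median of −0.66.

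**Figure D5:**
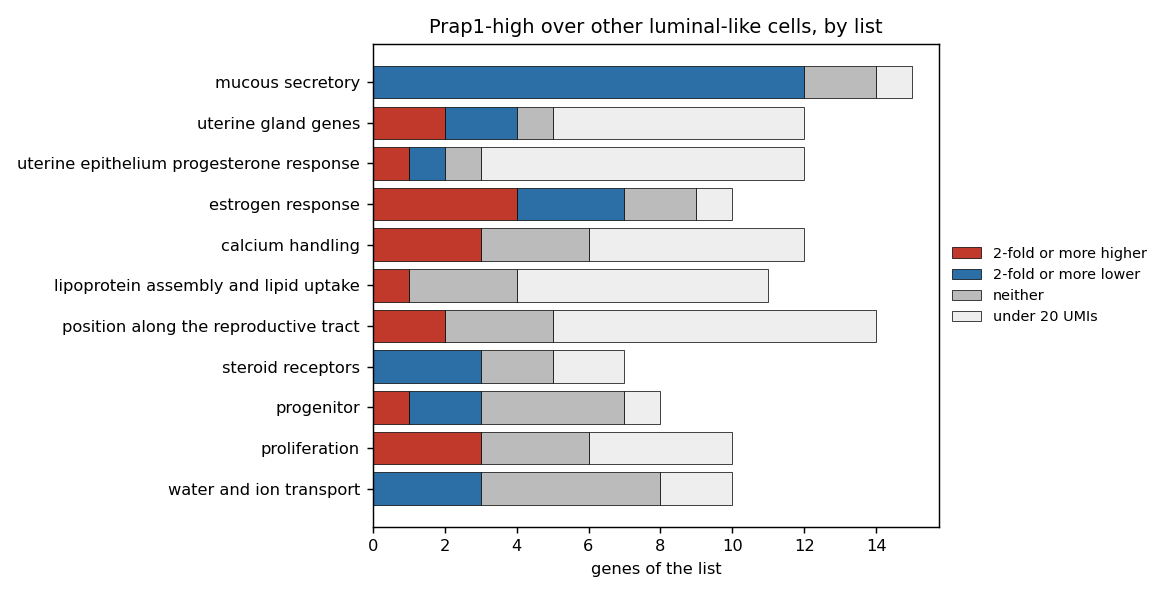
Number of genes of each list (x axis) that were higher (red) or lower (blue) by 2-fold or more in Prap1-high than in other luminal-like progesterone cells, that were neither (grey) or that had under 20 UMIs in the comparison (light). The mucous secretory bar is blue for 12 of 15 genes, and calcium handling has 3 red and no blue genes. Over all 11054 genes compared, 9.38% were higher and 16.7% lower.

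The genes that went with Prap1 in the progesterone library were in part present and in part missing among control cells. Sult1d1 had 0 UMIs in control luminal-like cells and in clusters 8 and 19, and Napsa had 1 UMI in all of them. C3 was at 22.7 CPM in control luminal-like cells, 376 in cluster 8 and 130 in cluster 19, S100g at 12.6, 48.6 and 78.9, and Ifitm1 at 117, 4950 and 1978. The control cells with the most Prap1 thus came from clusters in which C3 and Ifitm1 were also counted over all cells, and in which Calb1 was not. Those cells themselves, with 19 and 13 Prap1 UMIs, had 0 and 1 UMI of C3 and 1 and 34 of S100g. Napsa, Serpina1e, Sult1d1 and Wfdc10 were at 0 in both.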

How the data were processed

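Cervix cells were profiled with the 10x 3′ kit in 1 control and 1 progesterone library of 9 pooled mice each. The authors deposited filtered matrices of raw UMI counts per gene and barcode, per the file headers, and Cell Ranger 3.0.2 and the build mm10 are named in the submitters' processing notes. Positions are from GENCODE release 21 (GRCm38), which held 30934 of the 31053 identifiers.

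A barcode was analysed if it had 200 or more genes and no more than 20% of its UMIs from mitochondrial genes, and the highest Scrublet scores (scanpy 1.11.5) were left out at 0.8% per 1000 cells in each library. Both libraries were clustered together (2000 variable genes, 30 components, 15 neighbours, Leiden resolution 1) without mitochondrial genes, Prap1 and Calb1. These genes were removed after each cell had been scaled to its total, which included them. Clusters were named X-like from fixed markers, with a score of at least 0.75 and a lead of at least 0.5. The naming thresholds were taken from earlier work on these data, and all members and lists were chosen with earlier results of these data known.

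UMIs were summed per set of cells and scaled to CPM. Intervals are exact Poisson for levels, Clopper-Pearson for shares and conditional binomial for ratios. A log2 ratio had 0.5 counts added to both sums, and 20 UMIs in the comparison were required. The computation of the contrast was tested on simulated sums with counting error only, in which the changed genes had at least 2000 UMIs in the reference. This does not bear on variation between cells or on changed genes with fewer UMIs. Named genes were, by rule, the 10 with the largest share of UMIs in Prap1-high cells, the 15 highest and 15 lowest by the interval bound nearest to 1 with at least 100 UMIs in the group where they were higher, keratins of at least 100 CPM, and any gene of the 11 lists. Thinning drew 2000 UMIs per cell. A few genes that met this rule or belong to a list are not reported here by name.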

Additional observations from a re-analysis of the deposited data

How the results depend on the processing

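Each value was recomputed under settings that changed 1 choice at a time, and 3 settings built on cluster 14, and the Calb1 split without the highest cells, were added after the data had been seen. Folds given for single genes under other settings include the 0.5 added counts. Of 227 such values for the main results, 181 moved by less than the counting error or 1.5 times, 31 moved further and 15 changed sign. Of 473 values for single named genes, 365, 105 and 3 did so. The number of Prap1-high cells ran from 22 under the stricter filter (500 genes, 10% mitochondrial UMIs) to 38 at 10 Prap1 UMIs.

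Prap1 in Prap1-high cells was 87530 CPM under the stricter filter, 60560 at 10 and 89180 at 50 Prap1 UMIs, 135000 without mitochondrial, ribosomal protein and the 20 most abundant genes, 78040 as a mean of cells, 83820 for the Prap1-high cells of cluster 14 and 56530 for all of cluster 14. Prap1 elsewhere was 8.27 CPM under the stricter filter, 7.10 at 10 and 13.5 at 50 UMIs, and 16.9 and 15.0 for the Prap1-high and for all cells of cluster 14. The Calb1 log2 ratio was 6.75 at 10 UMIs, 5.95 with a reference chosen by keratins, 7.60 without cluster 14 in the reference, and 7.67 and 8.13 for the Prap1-high and for all cells of cluster 14. The share of Calb1 UMIs was 78.1% at 10 UMIs and 90.4% for all of cluster 14.

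Basal keratins (log2 ratio −0.69) moved to −0.36 under the stricter filter, −0.39 at 10 UMIs, −0.20 at resolution 2, −2.52 with the keratin reference, −1.02 as a mean of cells and −0.98 for cluster 14. Luminal keratins turned to −0.026 at 50 UMIs, −0.0097 under the other scaling and −0.10 for cluster 14, and moved to 0.28 with the keratin reference. Krt14 turned to −0.55 without doublet removal, −2.57 with the keratin reference and −0.17 as a mean of cells. The estrogen response median was 0.40 under the stricter filter, −1.16 without doublet removal, 0.46 at 50 UMIs, −0.91 at resolution 2, −0.38 with the keratin reference, 0.48 and 0.11 for the Prap1-high and for all cells of cluster 14 and 1.65 without a count filter. The progenitor median turned to −0.16 under the stricter filter, −0.20 at 10 UMIs, −0.010 at 50 UMIs and −0.14 for cluster 14. The progesterone response median turned to −0.94 under the stricter filter. The uterine gland median turned to 0.38 with the keratin reference, 0.015 as a mean of cells, 1.81 for cluster 14 and 1.49 without a count filter. The causes were not tested.

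The median of all genes went from −0.13 to −0.23 under the other scaling and to −0.18 as a mean of cells. No paired analysis was possible because each group is 1 pooled library. Leaving out a replicate was not possible for the same reason. The 246832 UMIs of the Prap1-high cells limit what can be seen of genes below the 12.2 CPM that 3 counts give.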
